A study of Mus musculus with 9 samples.

Results

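A set of 10 genes is described here whose products mark stomach or intestinal epithelium and that serve, in pancreatic ductal adenocarcinoma, as markers of the classical state: Vsig1, Anxa10, Ctse, Agr2, Lgals4, Tspan8, Reg4, Spink1, Vsig2 and Alpi. They were picked by name as markers of that state, with their levels in these libraries already known, and all 10 were found among the 49671 genes of the deposited count tables. The levels and differences of these 10 genes are therefore given as descriptions, without a p-value. The study measured RNA by bulk poly(A) sequencing in a mouse pancreatic cancer line with intact CD49b (KPCWT, called WT) and in its CD49b knockout counterpart (KPC49bKO, called KO). CD49b is integrin alpha 2, a collagen receptor subunit encoded by Itga2. The 9 libraries fall into 4 groups, with 2 cultures of each line, 3 tumours of the WT line and 2 tumours of the KO line. Cultures were grown in DMEM with fetal bovine serum and antibiotics and taken before confluence. Tumours came from the same lines, placed under the skin of the flank of syngeneic C57BL/6 mice, and were dissociated with enzymes before RNA was extracted. No age or sex of the mice is stated in the labels. Each genotype is 1 line, so the knockout cannot be told apart from other differences between these lines. The labels call the replicates biological but do not say whether the cultures were separate or whether each tumour had its own mouse, so the spread between them may be partly technical. Dissociated tumours also hold host cells, and the labels name no step that removed them.

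Pancreatic cancers are commonly sorted into a classical state, in which tumour cells keep an epithelial program rich in genes of the stomach and gut, and a basal-like state with squamous and mesenchymal features. The healthy pancreas makes little of most of these gut products, and many of them appear first in precursor lesions with a gastric character. The 10 genes cover several jobs of a gut lining: cell adhesion (Vsig1, Vsig2), brush border digestion (Alpi), membrane and lectin scaffolds (Anxa10, Lgals4, Tspan8), intracellular proteolysis (Ctse), and secretion and mucin folding (Agr2, Reg4, Spink1).

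The 250 bases upstream of the RefSeq transcription start are shown for 4 members, from the GRCm38.p6 promoter table, read 5′ to 3′ on the gene's own strand. Alpi and Vsig1 are shown because they were higher in KO in both settings, and Anxa10 and Lgals4 because they were high in every library and diverged between genotypes in tumours. Capitals mark matches to 6 short motifs, searched on both strands.
Alpi, chr1:87101607-87101856, minus strand: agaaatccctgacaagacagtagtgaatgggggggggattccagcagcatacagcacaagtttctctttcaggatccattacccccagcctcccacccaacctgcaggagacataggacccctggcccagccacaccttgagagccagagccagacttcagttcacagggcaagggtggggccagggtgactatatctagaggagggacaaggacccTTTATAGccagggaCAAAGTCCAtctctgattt
Vsig1, chrX:140907358-140907607, plus strand: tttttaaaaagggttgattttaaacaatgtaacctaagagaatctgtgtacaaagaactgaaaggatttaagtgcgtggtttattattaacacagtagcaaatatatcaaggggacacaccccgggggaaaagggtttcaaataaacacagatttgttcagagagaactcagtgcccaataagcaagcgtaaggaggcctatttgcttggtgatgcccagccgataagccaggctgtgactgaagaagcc
Anxa10, chr8:62123194-62123443, minus strand: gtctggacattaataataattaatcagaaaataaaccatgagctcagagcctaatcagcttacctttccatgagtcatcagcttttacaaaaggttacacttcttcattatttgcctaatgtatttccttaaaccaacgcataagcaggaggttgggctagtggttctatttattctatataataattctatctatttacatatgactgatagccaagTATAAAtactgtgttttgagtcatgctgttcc
Lgals4, chr7:28833544-28833793, plus strand: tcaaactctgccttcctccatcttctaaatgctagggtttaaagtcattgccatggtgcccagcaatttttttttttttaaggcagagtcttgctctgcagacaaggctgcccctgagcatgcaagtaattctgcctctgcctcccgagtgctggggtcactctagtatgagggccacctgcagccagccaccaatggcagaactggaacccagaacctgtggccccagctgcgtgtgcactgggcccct
The HNF4 motif was CAAAGTCCA and the GATA motif AGATAA. The forkhead motif had the forms TGTTTAC and, as the other, TGTTTGC. The CDX motif was TTTATNG and the TATA box TATAAA, and the sixth was a palindromic HNF1 motif. Upstream sequence was taken for 7 of the 10 members (Vsig1, Anxa10, Agr2, Lgals4, Tspan8, Reg4 and Alpi), and each was searched over 300 bases, 250 before the start and 50 after it. The Alpi window held the HNF4 letters starting 19 bases before the start, and 33 bases before it TTTATAG, where the CDX letters and the reverse complement of the TATA box overlap. The HNF4 letters occur in 0.475% of all 32851 windows of that length, against 10.9% for CDX and 13.6% for TATA. Anxa10 had a TATA box 32 bases before its start, and Tspan8 had a forkhead match, TGTTTAC, 18 bases before its start. Agr2 had a CDX match 48 bases before its start, and Reg4 had forkhead matches 201 and 83 bases and a GATA match 101 bases before its start. GATA letters occur in 11.2% of windows, the forkhead letters in 8.48% and the HNF1 letters in 0.00913%. Vsig1 and Lgals4 held none of these letters in the window. A match describes the sequence and does not show that a factor binds there.

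Total counts ran from 16032912 to 21247023 per library. Levels are given as CPM, counts brought to 1 common library size by TMM scaling over all 9 libraries, and group means are given ± SD. Itga2, the targeted gene, was at 134.8 and 168 CPM in WT cultures against 96.5 and 104 in KO cultures. In tumours it was at 119 to 144 in WT against 44.5 and 64.0 in KO. KO was below WT in both settings, and Itga2 RNA was still counted in every KO library. The genotypes did not overlap for 62.0% of all genes tested in culture and 53.7% in tumours, so this separation cannot check the labels. The epithelial markers Cdh1, Krt8, Krt18 and Krt19 were abundant in every library, whereas Epcam had 56 and 53 counts in WT cultures and 0 and 1 in KO cultures. The 5 epithelial markers together summed to 9460 to 10334 CPM in WT cultures, 9733 to 10083 in KO cultures, 4109 to 5331 in WT tumours and 7300 to 9113 in KO tumours. The 11 fibroblast and endothelial markers summed to 1123 to 3075 CPM in WT tumours and 418 to 669 in KO tumours, and to 2.59 or less in the cultures. The 14 leukocyte markers summed to 175 to 255 CPM in WT tumours and 195 to 293 in KO tumours, which overlap. Acinar and islet RNA was near 0: Ins1, Ins2, Gcg, Sst, Cela2a and Amy2a5 had no count in any library, and the 13 markers of these cells summed to 50.8 CPM or less, nearly all of it Cela1. Skin keratinocyte markers summed to 91.4 to 210 CPM over the 9 libraries, and skeletal muscle and fat markers to 30.1 to 127 CPM.

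**Figure D1:**
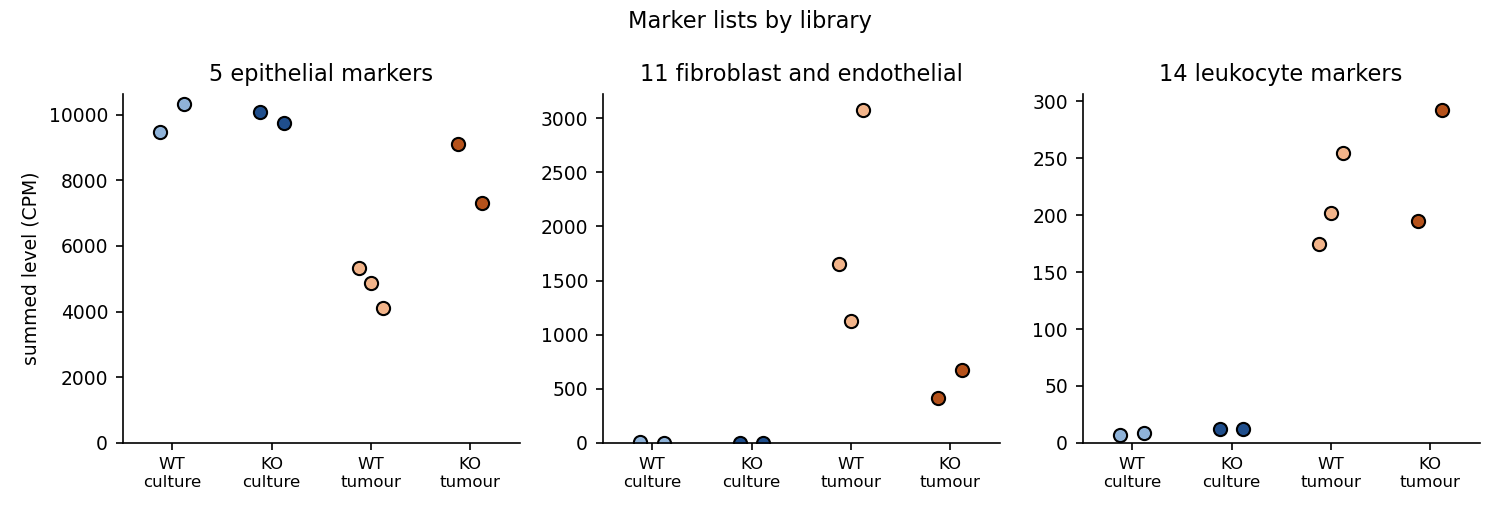
Summed level in CPM of 3 marker lists, with 1 point per library in the 4 groups. Epithelial markers ran from 7300 to 9113 CPM in KO tumours, above the 4109 to 5331 CPM of WT tumours, while fibroblast and endothelial markers ran the other way and leukocyte markers overlapped.

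KO tumours were thus above WT tumours in the summed epithelial markers and below them in the summed fibroblast and endothelial markers. Epcam ran against its list in tumours, at 66.9 to 156 CPM in WT and 34.3 and 40.9 in KO. The collagen genes Col1a1, Col1a2 and Col3a1 made up 88.0% to 93.9% of the fibroblast and endothelial sum in the tumours. Over all genes tested in tumours, 53.7% did not overlap in either direction and 10.9% were called lower in KO. Of the 11 markers in that sum, 6 lay below WT in both KO tumours and 5 overlapped, the endothelial markers Pecam1, Cdh5 and Kdr among them. In edgeR 5 were called lower and 6 were not called, and without KO tumour 1 the calls of all 5 (Col1a1, Col1a2, Col3a1, Lum and Vwf) were lost, as were those of the first 4 without WT tumour 1. In bulk RNA, fewer cells of a type and less RNA per cell cannot be told apart.

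Together the 10 genes took 0.241% and 0.277% of all counts in WT cultures, 0.213% and 0.235% in KO cultures, 0.162% to 0.20% in WT tumours, and 0.549% and 0.395% in KO tumours. Both KO tumours were above all other libraries in this share. Anxa10, Lgals4, Tspan8, Ctse and Vsig1 made up at least 98.9% of the members' counts in the cultures and WT tumours. In KO tumours they made up 91.8% and 85.8%, and Alpi supplied nearly all of the rest.

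The order of the members was taken per kilobase of exon (CPM per kb). In WT cultures Tspan8 (421 ± 68.8), Anxa10 (412 ± 91.5) and Lgals4 (404 ± 76.7 CPM per kb) led and did not differ beyond their spread. Ctse followed at 114 ± 9.76, Vsig1 at 30.8 ± 3.29 and Alpi at 0.330 ± 0.00766 CPM per kb. KO cultures had the same leading set, Lgals4 (380.1 ± 35.3), Anxa10 (373 ± 43.9) and Tspan8 (360.4 ± 89.8), again within their spread. There Vsig1, at 73.4 ± 1.73, stood above Ctse at 59.4 ± 3.91 CPM per kb. In WT tumours the order was Tspan8 (200.3 ± 10.5), Lgals4 (172 ± 14.1), Ctse (139.9 ± 31.4), Anxa10 (72.1 ± 14.5), Vsig1 (47.3 ± 5.76), Alpi (3.32 ± 1.53), Agr2 (1.92 ± 1.89) and Vsig2 (0.958 ± 0.371 CPM per kb). Lgals4 and Ctse, and Alpi, Agr2 and Vsig2, were not separated from each other by their spread. In KO tumours Lgals4 (461 ± 107), Ctse (438 ± 238) and Tspan8 (294 ± 84.8) led with overlapping spread. Alpi (193 ± 23.5), Anxa10 (182 ± 25.7) and Vsig1 (171 ± 10.4 CPM per kb) came next at like levels. Tspan8 and Alpi also overlapped there. Alpi, which lay more than an order of magnitude below Vsig1 in the other groups, was level with it in KO tumours.

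**Figure D2:**
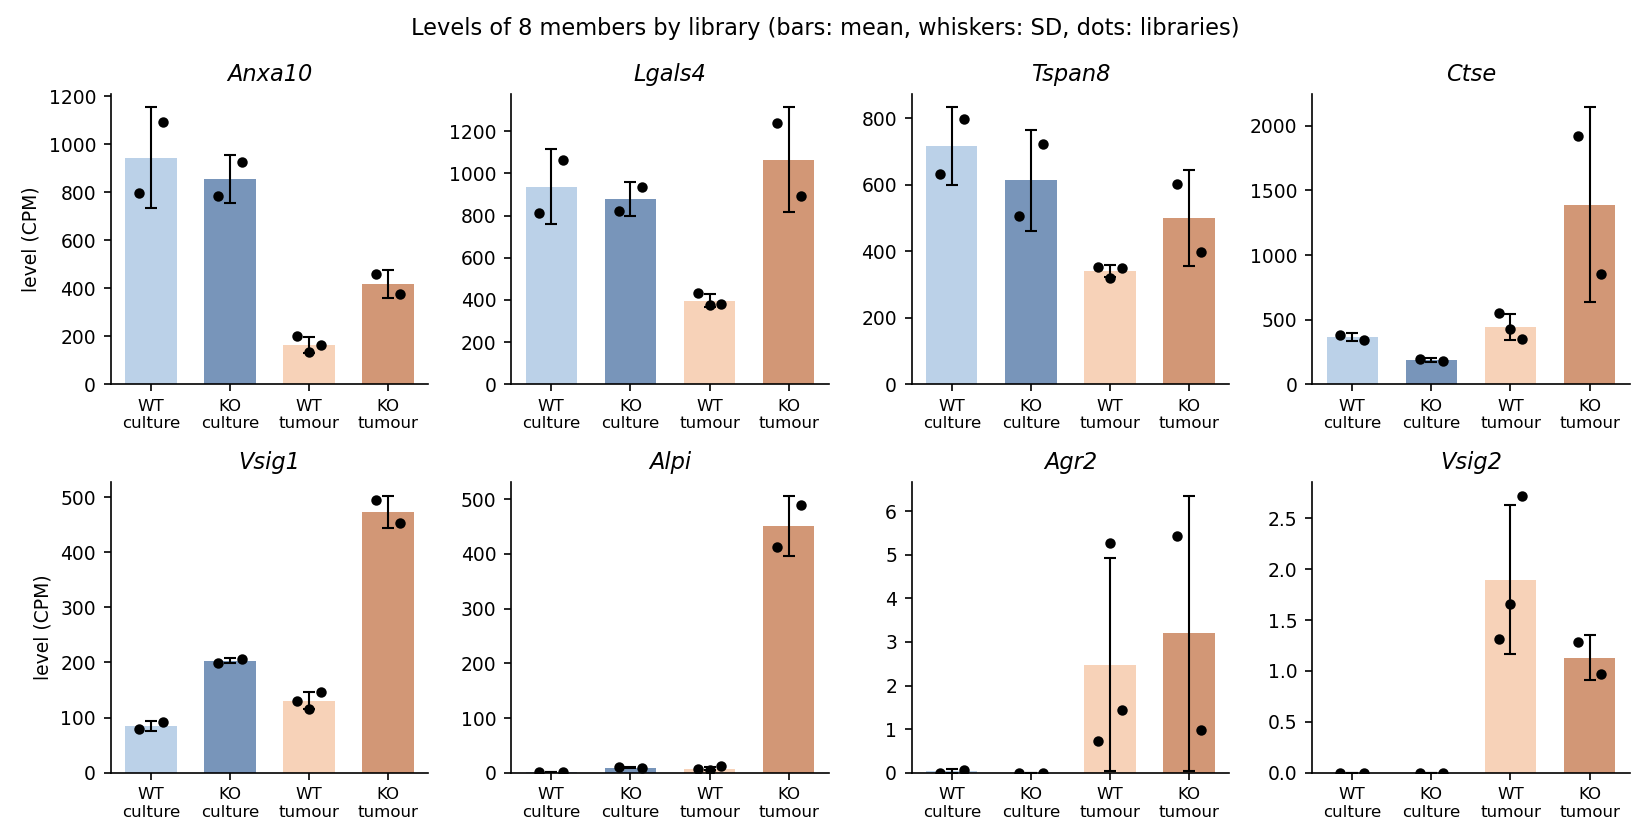
Level in CPM of 8 members in the 4 groups, on a linear axis of its own for each gene and starting at 0. Bars are group means, whiskers the SD and dots the libraries; Alpi stood at 412 and 490.1 CPM in KO tumours and at 11.9 CPM or less in all other libraries.

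Vsig1 encodes a junctional adhesion protein of the immunoglobulin superfamily, typical of the stomach lining (ENSMUSG00000031430, chrX:140907608-140939472, plus strand). It stood at 78.7 and 91.6 CPM in WT cultures, 199.8 and 207 in KO cultures, 130.0, 115 and 147 in WT tumours, and 494 and 453 in KO tumours. Every KO library was above every WT library of its setting, and the 2 genotypes did not overlap in either. The log2 fold change of KO over WT was 1.21 (SE 0.16) in culture and 1.84 (SE 0.14) in tumours. Tumours stood above cultures 1.54-fold in WT and 2.33-fold in KO. Vsig2 encodes a related membrane protein of the same superfamily (ENSMUSG00000001943, chr9:37539255-37544205, plus strand) and had no count in any culture, which allows up to 0.0963 CPM over the WT and 0.0927 CPM over the KO cultures. It had 27, 33 and 64 counts (1.31, 1.66 and 2.72 CPM) in WT tumours and 22 and 18 counts (1.28 and 0.972 CPM) in KO tumours. Its tumour level was at least 20.1-fold above the culture floor in WT and at least 12.1-fold in KO, taking 3 counts over the group as the floor. KO tumours lay just below WT tumours, with a log2 fold change of -0.77 (SE 0.45), so the gap was under 2 standard errors. The 2 relatives thus differed in pattern: Vsig1 was present throughout and higher in KO, while Vsig2 was seen only in tumours and at a low level.

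Alpi encodes the intestinal alkaline phosphatase of the enterocyte brush border, which removes phosphate from bacterial lipopolysaccharide among other substrates (ENSMUSG00000079440, chr1:87098002-87101606, minus strand). It had 12 and 12 counts in WT cultures, 195 and 120 in KO cultures, 124, 107 and 279 in WT tumours, and 7065 and 9076 in KO tumours. These correspond to 0.758 and 0.783 CPM, 10.8 and 8.34 CPM, 6.02, 5.37 and 11.9 CPM, and 412 and 490.1 CPM. KO was above WT in both settings without overlap, and KO tumours exceeded every other library by far more than the spread within a group. The log2 fold change of KO over WT was 3.59 (SE 0.33) in culture and 5.84 (SE 0.35) in tumours, the latter 6.27 without WT tumour 3. Tumours stood above cultures 10.1-fold in WT and 47.1-fold in KO. Alpi lies in a cluster with 2 near copies, Alppl2 (chr1:87086694-87089928, minus strand, 8074 bases away) and Akp3 (chr1:87124973-87127912, plus strand, 23367 bases away). In KO tumours Akp3 had 62 counts and Alppl2 37, equal to 0.384% and 0.229% of the 16141 counts of Alpi. In WT tumours they had 5 and 2 counts. Reads shared between such copies may have been split or dropped by the counting, so the small values of Akp3 and Alppl2 are uncertain. Alpl, the tissue-nonspecific alkaline phosphatase of bone and liver, ran the other way, with 78 counts in WT cultures against 3 in KO cultures and 309 in WT tumours against 5 in KO tumours.

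Anxa10, Lgals4 and Tspan8 were abundant members whose genotypes overlapped in culture and whose KO tumours lay above the WT tumours, by differing margins. Anxa10 is an annexin of gastric epithelium, from a family that binds membrane phospholipids (ENSMUSG00000031635, chr8:62057042-62123150, minus strand). It stood at 796 and 1092 CPM in WT cultures, 784 and 927 in KO cultures, 199.5, 133 and 163 in WT tumours, and 459 and 375 in KO tumours. The cultures overlapped between genotypes, with a log2 fold change of -0.18 (SE 0.20), whereas both KO tumours lay above all WT tumours, with 1.32 (SE 0.19). Tumours were below cultures in both genotypes, at 0.175 of the culture level in WT and 0.488 in KO.

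Lgals4 encodes galectin 4, a lectin of gut epithelium that binds galactosides and helps sort proteins to the apical membrane (ENSMUSG00000053964, chr7:28833854-28841708, plus strand). Its level was 811 and 1062 CPM in WT cultures, 822 and 938 in KO cultures, 435, 376 and 381 in WT tumours, and 1241 and 891 in KO tumours. WT tumours were the low group, and KO tumours overlapped the cultures. The log2 fold change of KO over WT was -0.13 (SE 0.19) in culture, where the genotypes overlapped, and 1.41 (SE 0.18) in tumours, where they did not. Without WT culture 2 the culture values of Anxa10 and Lgals4 turned slightly positive, to 0.05 and 0.07.

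Tspan8 encodes a tetraspanin, a membrane protein that organises other surface proteins into patches (ENSMUSG00000034127, chr10:115816832-115849893, plus strand). It stood at 633 and 799 CPM in WT cultures, 505 and 722 in KO cultures, 351, 320.3 and 351 in WT tumours, and 603 and 399 in KO tumours. The KO tumours were above the WT tumours but only KO tumour 1 by a clear margin. The log2 fold change of KO over WT was -0.27 (SE 0.20) in culture and 0.54 (SE 0.19) in tumours, the latter 0.20 without KO tumour 1 and 0.84 without KO tumour 3. WT tumours held 0.476 of the WT culture level. KO tumours overlapped KO cultures, with a ratio of 0.817, or 1.10 when counts were scaled by library totals alone.

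Ctse encodes cathepsin E, an intracellular aspartic protease of gastric surface cells (ENSMUSG00000004552, chr1:131638306-131675505, plus strand). It stood at 384 and 341 CPM in WT cultures, 197 and 179.6 in KO cultures, 550.4, 426 and 353 in WT tumours, and 1922 and 855 in KO tumours. KO lay below WT in culture and above it in tumours, without overlap in either setting. The log2 fold change was -0.99 (SE 0.16) in culture and 1.64 (SE 0.35) in tumours. The tumour value depended on the library: it was 0.92 without KO tumour 1 and 2.13 without KO tumour 3. KO tumours stood 7.37-fold above KO cultures, or 4.54-fold without KO tumour 1, while WT tumours, at 1.22-fold, overlapped WT cultures. Ctse was the only member of the 6 that passed the count filter in both settings whose genotype order was opposite in culture and tumours without overlap.

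The members tied to secretion were scarce. Agr2 encodes a protein disulfide isomerase of the endoplasmic reticulum that mucin-producing cells need (ENSMUSG00000020581, chr12:35992907-36004087, plus strand). It had 1 count in the 4 cultures together, 15, 105 and 34 counts in WT tumours, and 93 and 18 in KO tumours. At 0.729 to 5.27 CPM in WT tumours and 0.972 and 5.43 CPM in KO tumours, the genotypes overlapped, with a log2 fold change of 0.36 (SE 0.95). Leaving out KO tumour 1 gave -1.36, leaving out WT tumour 1 gave -0.11, and leaving out WT tumour 2 gave 1.52, so no genotype order can be read from it. WT tumours stood 74.9-fold above WT cultures, with a 95% counting interval of 13.3 to 2978 from that single culture count, or 34.6-fold (5.93 to 1394) without WT tumour 2. KO tumours, pooled, stood at least 33.6-fold above the KO culture floor of 3 counts, a bound that was 10.5 without KO tumour 1 and 58.6 without KO tumour 3. Reg4, a secreted lectin-like protein of gut endocrine cells (ENSMUSG00000027876, chr3:98222156-98236748, plus strand), had 0 and 1 counts in WT cultures, 0 and 1 in KO cultures, 0, 1 and 3 in WT tumours, and 0 and 0 in KO tumours. Spink1, a trypsin inhibitor secreted by acinar cells (ENSMUSG00000024503), had no count in any of the 9 libraries, which allows a level of up to 0.0184 CPM over all of them. For Reg4 and Spink1 no difference between groups was detectable at this depth. Vsig2 and Agr2 rested on so few counts in culture that the effect of the knockout there could not be measured.

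In culture, 6 of the 10 members passed the filter on low counts. Of these, 2 were called higher in KO (Vsig1 and Alpi), where 9.27% of all 13573 genes tested were called higher, and 1 was called lower (Ctse), against 16.2% of all genes (edgeR, adjusted p under 0.05). The genotypes did not overlap for the same 3 members, against 62.0% of all genes tested. In tumours, 8 members passed the filter, among them Agr2 and Vsig2, which passed only through their tumour counts. Here 5 members were called higher in KO (Vsig1, Alpi, Ctse, Lgals4 and Anxa10), against 8.78% of all 16257 genes tested, and 0 lower, against 10.9%. All KO tumours lay above all WT tumours for 6 members and below for 1, Vsig2, against 53.7% of all genes without overlap in either direction. Ctse was no longer called when WT tumour 2, WT tumour 3 or else KO tumour 1 was left out, and Tspan8 was called without KO tumour 3. Since these contrasts were known when the members were chosen, nothing is read from their counts.

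**Figure D3:**
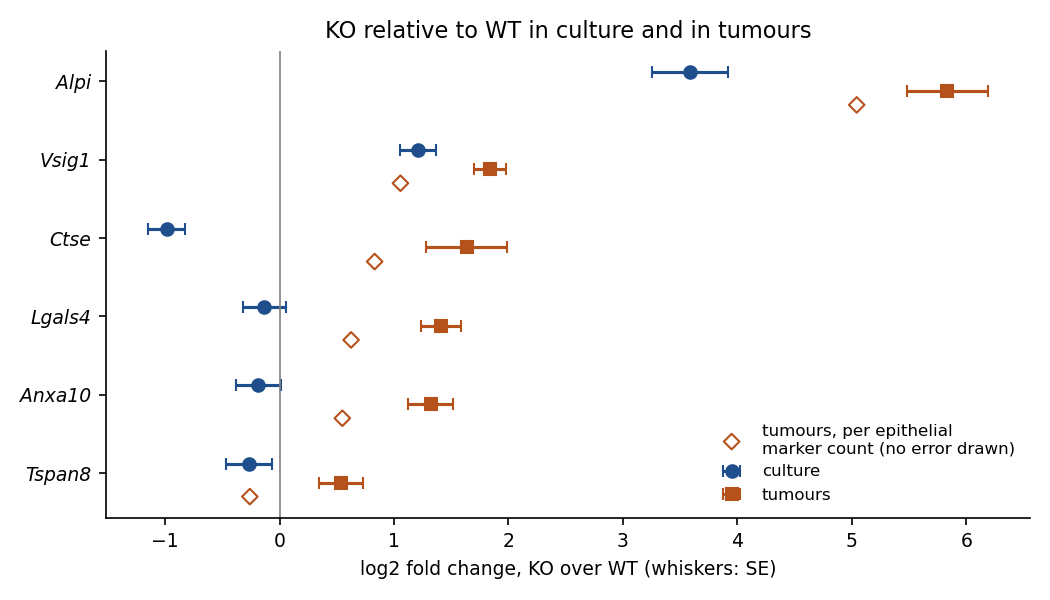
Log2 fold change of KO over WT for the 6 members measured in both settings, with circles for culture, squares for tumours and whiskers for the SE. Open diamonds give tumours relative to the summed counts of 5 epithelial markers, without error; Alpi and Vsig1 lie to the right of 0 in both settings, Ctse on opposite sides, and Tspan8 moves to -0.26 per epithelial count.

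The tumour differences were set beside the summed epithelial markers Epcam, Cdh1, Krt8, Krt18 and Krt19 of the same libraries. Most of that sum was keratin. Krt8, Krt18 and Krt19 stood at 1892, 1168 and 1126 CPM of 5331 in WT tumour 1. In KO tumour 1 they stood at 3576, 1778 and 2429 CPM of 9113. Each member's count was divided by the summed count of the 5 markers, an alternative chosen after seeing the data. On that scale the log2 ratio of KO over WT tumours was 5.04 for Alpi, 1.06 for Vsig1, 0.83 for Ctse, 0.63 for Lgals4 and 0.55 for Anxa10, and for each of the 5 both KO tumours stayed above all WT tumours. Tspan8 turned to -0.26 with overlapping genotypes, Agr2 to -0.52 with overlap, and Vsig2 to -1.60 with KO below WT. Of the 5 markers in that sum, Krt8 and Krt19 themselves rose in KO tumours (0.97, SE 0.18, adjusted p = 0.0149, and 1.04, SE 0.19, adjusted p = 0.0150) and Epcam fell by 1.57 (SE 0.35, adjusted p = 0.0243). The call of Krt19 was lost without WT tumour 2, that of Krt8 without WT tumour 2 or KO tumour 1, and that of Epcam without any 1 tumour other than WT tumour 3. The part that the epithelial and stromal share takes in the tumour differences was not tested further.

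The effect of the knockout was compared between settings by subtracting the culture log2 fold change from that in tumours, in a fit of all 9 libraries. All 6 members measured in both settings had a positive value: 2.59 (SE 0.43) for Ctse, 2.22 (SE 0.62) for Alpi, 1.51 (SE 0.26) for Lgals4, 1.48 (SE 0.29) for Anxa10, 0.78 (SE 0.30) for Tspan8 and 0.60 (SE 0.21) for Vsig1. Ctse, Lgals4 and Anxa10 were called, where 5.69% of all 16793 genes tested were called in either direction, and nothing is read from these calls either. The call of Anxa10 was lost without KO culture 1 or WT culture 2 and that of Lgals4 without KO culture 1, while Alpi was called without WT tumour 3 and Tspan8 without KO tumour 3, and both without the filter. Culture and tumour libraries also carry different batch labels, so the setting and the batch cannot be told apart. Levels between settings depend on the scaling as well: with library totals in place of TMM, the tumour over culture ratio of Anxa10 was 0.245 in WT and 0.658 in KO, and that of Vsig1 2.15 and 3.14.

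Other genes named as markers of the classical state were taken from a list of 13, of which 12 had a symbol in the annotation and 9 were tested in each setting. In tumours 6 rose in KO and 0 fell, with a median log2 fold change of 1.83 over the 9, against -0.01 over all genes. Krt20, a keratin of gut surface cells, stood at 245, 193 and 247 CPM in WT tumours and 972 and 667 in KO tumours and rose by 1.83 (SE 0.20, adjusted p = 0.00361). Tff2, a trefoil peptide of gastric neck cells, rose by 2.93 (SE 0.31, adjusted p = 0.00301), and Tff1, that of surface cells, by 4.19 (SE 0.45, adjusted p = 0.00312). Myo1a, a brush border myosin, rose by 1.95 (SE 0.31, adjusted p = 0.00904). In culture 2 of the 9 rose, Tff1 (2.18, SE 0.21, adjusted p = 1.16e-05) and Tff2 (1.85, SE 0.20, adjusted p = 3.16e-05). There 3 fell: Tff3 fell by 2.73, Prr15l fell by 2.26 and Clrn3 fell by 1.58, the last a call lost without any 1 of the cultures. The median over the 9 was -0.13. For this list, chosen with earlier results of these data known, culture gave a mixed picture and the tumour calls were toward KO. Beside the counts of this and the following lists, 9.27% of all genes tested in culture were called higher and 16.2% lower. In tumours these shares were 8.78% and 10.9%. The tumour values of this and the following lists come from libraries whose epithelial marker sum was 4109 to 5331 CPM in WT and 7300 to 9113 CPM in KO, and the part of that in them was not tested.

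Genes of stomach surface and neck cells, a list of 14 that shares Tff1 and Tff2 with the previous one, were mostly higher in KO in both settings. In culture 9 of 11 tested rose and 0 fell (median 2.18, against 0.00 over all genes), and in tumours 8 rose and 1 fell (median 2.93). Mucl3, a mucin-like protein, went from 25.0 and 22.1 CPM in WT cultures to 201 and 153 in KO cultures, and from 19.7 CPM or less in WT tumours to 835 and 328 in KO tumours. Cldn18, the tight junction claudin of the stomach, rose by 1.47 (SE 0.12, adjusted p = 0.00153) in tumours and stood at 144, 136 and 146 CPM in WT tumours against 428 and 367 in KO tumours. Gkn2, a gastrokine of surface cells, rose by 4.24 (SE 0.28, adjusted p = 5.66e-07) in culture. Aqp5, a water channel of gland cells, was the gene that fell in tumours, by 3.59 (SE 0.66, adjusted p = 0.0145), at 2.04 CPM or less in every tumour library, and its call was lost without KO tumour 1.

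Enterocyte genes, a list of 20, were set beside all genes tested, of which 9.27% were called higher and 16.2% lower in culture. In tumours 8.78% of all genes were called higher and 10.9% lower. Of the list, 10 were tested in culture, of which 1 rose and 3 fell (median -0.57). In tumours 13 of the list were tested, of which 7 rose and 1 fell (median 1.12). Rbp2, the retinol-binding protein of enterocytes, stood at 2.34 and 2.81 CPM in WT cultures, 1.45 and 1.74 in KO cultures, 10.9, 11.2 and 17.0 in WT tumours, and 101 and 94.2 in KO tumours, and rose by 2.88 (SE 0.21, adjusted p = 0.00116) in tumours. Fabp1, a fatty acid binding protein, fell by 3.05 (SE 0.45, adjusted p = 0.000298) in culture and rose by 3.83 (SE 0.46, adjusted p = 0.00415) in tumours. Apob, the lipoprotein scaffold, and Cdhr2, a brush border cadherin, rose in tumours by 1.62 (SE 0.21, adjusted p = 0.00537) and 2.14 (SE 0.28, adjusted p = 0.00558). Vil1, the microvillus protein villin, fell by 1.30 (SE 0.18, adjusted p = 0.000159) in culture. Thus Alpi was higher in KO than in WT in both settings, while the brush border and lipid genes Vil1, Fabp1 and Anpep were lower in KO cultures. Mep1b, of the same list, went the other way in culture, with a fitted size that is uncertain because 1 group had no count.

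Goblet cell genes, a list of 14, gave 3 higher and 3 lower of 8 tested in culture (median 0.85) and 5 higher and 2 lower of 10 in tumours (median 1.26). Bcas1 rose in culture by 5.44 (SE 0.25, adjusted p = 6.99e-08) and in tumours by 7.08 (SE 0.37, adjusted p = 0.000487). Ern2, a stress sensor of mucin-producing cells, rose in tumours by 1.95 (SE 0.30, adjusted p = 0.00849). In culture it fell by 2.31, a call lost with DESeq2. Muc2 fell by 4.01 in tumours, a call also lost with DESeq2. It had 12, 15 and 7 counts in WT tumours and 0 and 1 in KO tumours. Spdef, a transcription factor of goblet cells, fell by 3.28 in tumours (SE 0.63, adjusted p = 0.0163), a call lost without KO tumour 1. The 7 tumour calls became 3 without WT tumour 1 and 4 with limma-voom or when WT tumour 2, WT tumour 3 or else KO tumour 1 was left out.

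Among 21 transcription factors of gut and foregut, 4 rose and 3 fell of 19 tested in culture (median 0.15), and 4 rose and 2 fell of 18 in tumours (median 0.21). Sox17, an endoderm factor, stood at 36.8 and 33.3 CPM in WT cultures against 224 and 192 in KO cultures, and at 8.74 to 13.0 in WT tumours against 56.0 and 55.7 in KO tumours. It rose by 2.53 (SE 0.17, adjusted p = 6.31e-07) in culture and 2.34 (SE 0.18, adjusted p = 0.00129) in tumours. Klf4, a factor of surface epithelium, rose by 1.31 (SE 0.17, adjusted p = 0.000125) and 1.46 (SE 0.18, adjusted p = 0.00451). Foxa2, a forkhead factor of foregut, rose in tumours by 0.81 (SE 0.12, adjusted p = 0.00763). Cdx2, the intestinal homeobox factor, stood at 46.4 and 45.7 CPM in WT cultures against 31.0 and 32.2 in KO cultures and fell by 0.59 (SE 0.17, adjusted p = 0.0215), a call lost when any 1 culture was left out. Without WT culture 1 the 7 culture calls became 4, and without WT tumour 1 or WT tumour 2 the 6 tumour calls became 3.

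Basal-like subtype genes, a list of 19, showed no common direction in tumours: of 10 tested, 2 rose and 2 fell, with a median of 0.02. Tns4, a focal adhesion protein, fell by 4.12 (SE 0.16, adjusted p = 0.000401) in tumours and fell by 2.40 (SE 0.24, adjusted p = 1.36e-05) in culture. Areg, an EGF receptor ligand, rose by 1.29 (SE 0.25, adjusted p = 0.0170) in tumours and by 0.84 (SE 0.16, adjusted p = 0.00185) in culture. In culture 2 of 9 tested rose and 4 fell, with a median of -0.61. Ly6d was the other gene that rose in tumours, by 5.43, a call lost without any 1 of the WT tumours. Without KO tumour 1 the log2 fold changes of Areg and Ly6d were 1.05 and 3.71, and neither call held.

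**Figure D4:**
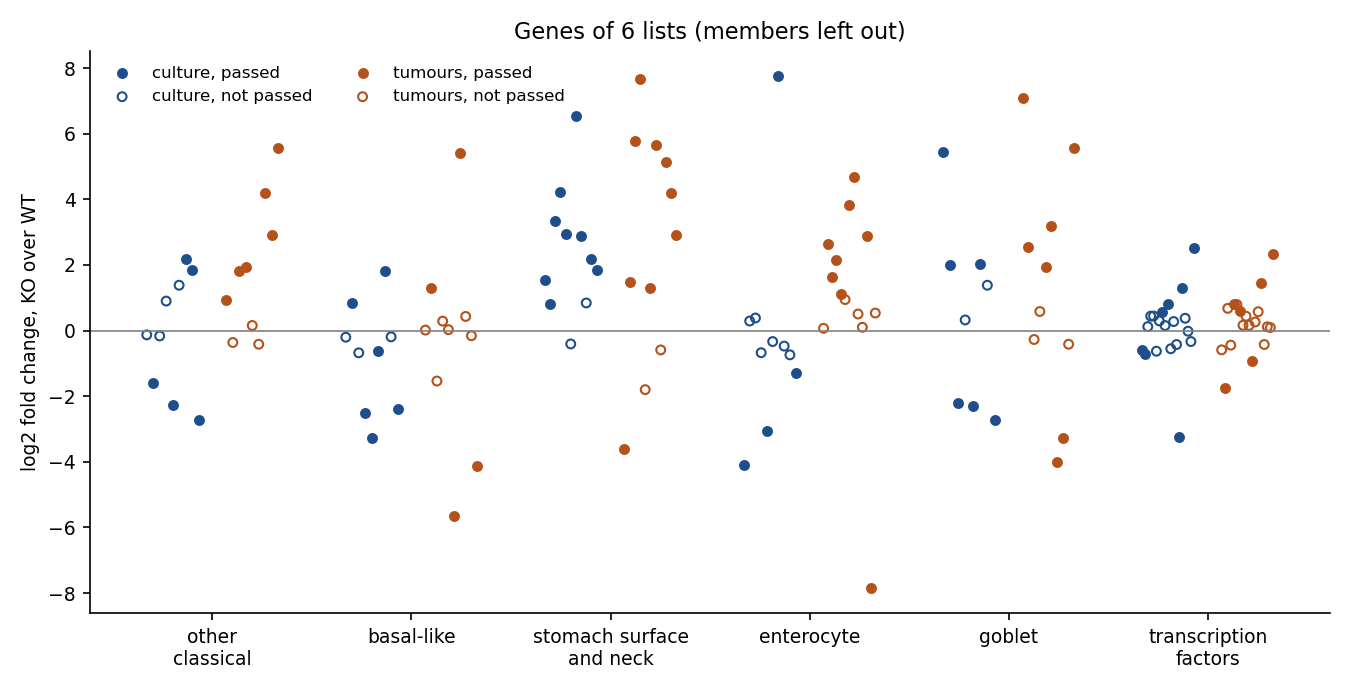
Log2 fold change of KO over WT for each tested gene of 6 lists, with the 10 members left out, blue for culture and orange for tumours, filled where the adjusted p was under 0.05. Stomach surface and neck cell genes lie mostly above 0 in both settings, other classical and enterocyte genes mainly in tumours; the highest culture point (Mep1b) and the lowest tumour point (Slc6a19) have no count in one group, so their fitted size is uncertain.

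The genes whose levels ran most like those of 3 members were found over the 9 libraries, as the smallest root mean square difference of centred log2(CPM + 1) among 10462 genes with a mean of at least 5 CPM. The 3 members were those that varied most over the libraries, Alpi (SD 2.97), Anxa10 (1.15) and Agr2 (1.09, on that log2 scale). For Anxa10 the nearest were Tm4sf4, a membrane protein of intestine and liver, at 0.132 and Kcnab1, a potassium channel subunit, at 0.210. Tm4sf4 stood at 1536 to 2074 CPM in cultures, 273 to 324 in WT tumours, and 993 and 802 in KO tumours, so that it had the same order of groups as Anxa10. For Alpi the nearest were Fhl1 at 0.814 and Fer1l4 at 1.19, much looser matches, with Fhl1 at 184 and 94.99 CPM in KO tumours, 7.53 to 10.2 in WT tumours and 0 and 0.189 in WT cultures. For Agr2 the nearest were Pla1a at 0.488 and Sytl5 at 0.497, which, unlike Agr2, were counted at 2.97 CPM or more in every culture.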

How the data were processed

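Bulk poly(A) RNA-seq was measured in 9 libraries. Per the labels' protocols, ERCC controls were spiked in and reads were deduplicated by UMI. The authors deposited raw counts per Ensembl gene in 1 table per setting. Per the submitters' processing notes, the build was GRCm38 and the tools were STAR 2.5.2b, fastp 0.23.1, DESeq2, featureCounts and Subread 1.5.2, listed without roles. Neither annotation release nor strand setting is given in the sources used here. The submitters' deposited normalized and rlog tables were not used.

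Symbols came from GENCODE M21 (49412 of 49671 genes). The second KO tumour column is numbered 3, while the labels number these tumours 1 and 2, so it was mapped to its group only. Genes were filtered with filterByExpr (minimum count 10, minimum total 15), scaled by TMM and tested with edgeR 4.0.16 (quasi-likelihood F test, R 4.3.3), with Benjamini-Hochberg adjustment over all genes tested and a threshold of 0.05. Fold changes use a prior count of 0.125. KO was compared with WT within each setting, and the difference of effects in 1 fit of all libraries. Floors of 3 counts and 95% intervals cover counting error only, and p-values measure only the spread between these samples. The script was tested on simulated data. All members are named, and from each other list up to 4 genes with the smallest p in a comparison, plus those of a count of 5 or fewer. The list genes called for the difference between settings, the relatives of the members, and the fibroblast and endothelial markers are named beyond that rule, after their values were seen. The members and lists were chosen with earlier results of these data known. Alternatives were RLE or library total scaling, 2 other filters, DESeq2 1.42.0, limma-voom (limma 3.58.1), 1 fit of all libraries, the replicate number as a block and each library left out.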

Additional observations from a re-analysis of the deposited data

Results flagged for a closer look

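The effect of the knockout was tested for a difference between tumours and culture in the fit of all 9 libraries (edgeR, adjusted p under 0.05). Over all 16793 genes tested, 955 (5.69%) were called. Of these, 697 had a log2 fold change of KO over WT that was higher in tumours than in culture, and 258 had one that was lower. Of the 161 genes tested that the lists hold beside the members, 31 were called, 29 higher and 2 lower. Among the members, whose values were known when they were chosen, the differences are descriptions: Anxa10 stood at 1.48, Ctse at 2.59 and Lgals4 at 1.51.

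Of the other classical subtype genes, Tff3, also a goblet cell gene, differed by 8.24 (SE 1.18, adjusted p = 0.00366), Prr15l by 2.39, Krt20 by 1.96 and Tff1 by 1.97. Of the stomach genes, Mucl3 differed by 2.25 and Muc1 by 1.66. Aqp5, by -5.16 (SE 0.60, adjusted p = 0.00147), ran the other way on few counts in tumours, as did the basal-like gene Tns4, by -1.75 (SE 0.32, adjusted p = 0.0107), which fell in both settings. Of the enterocyte genes, Fabp1 differed by 6.87, Fabp2 by 4.99, Anpep by 4.15, Rbp2 by 3.60, Vil1 by 1.81, Cdhr5 by 1.77, Cdhr2 by 1.72 and Apob by 1.30. Of the goblet cell genes, Ern2 differed by 4.23 and Creb3l1 by 1.91.

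Kcnq1, of the parietal cell list, differed by 3.05, since it fell less in tumours than in culture, and so did Anxa6 at 1.37, Tspan13 at 1.51 and Epcam at 4.99. The other relatives called were Tspan6 at 7.37, Lgals2 at 2.27, Anxa1 at 1.32, Cd9 at 1.18, Lgals9 at 1.15 and Lgals1 at 0.96. The keratins Krt19 and Krt8, in the epithelial marker list, differed by 1.49 and 1.20, and the keratinocyte gene Ivl by 2.89. Tspan6 had no count and Epcam 1 count in KO cultures, so the fitted size of both is uncertain.

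Each of the 31 kept its sign under all 17 alternatives, and 14 kept their call under all of them. The other 17 lost it in at least 1, most often Tff1 (11 of 17), Lgals1 (9) and Creb3l1 (8). Of the 77 lost calls, 49 came from fits without 1 culture and 14 from fits without 1 tumour. The summed epithelial markers were also higher in KO than in WT tumours while the cultures overlapped, and the part of this in the differences was not tested.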

How the results depend on the processing

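Over all genes, 3461 were called in culture, 3206 in tumours and 955 for the difference between settings. Leaving out 1 library gave 2130 (without WT culture 2) to 2985 in culture, 1171 (without WT tumour 2) to 4143 (without KO tumour 3) in tumours, and 288 (without KO culture 1) to 1651 (without KO tumour 3) for the difference. Without WT tumour 1 or KO tumour 1 the tumour count was 1258 or 1970. For the difference DESeq2 gave 1565 and no filter 1875, with more genes entering both fits (30261). Members called stayed at 3 in culture and ran from 4 to 6 in tumours with a library left out. The call of Ctse in culture was lost in 1 fit of all libraries.

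The labels link same-numbered cultures only by their number and do not say whether they were handled together. The deviations of WT culture 1 and KO culture 1 correlated at 0.55 across genes. With the replicate block 7587 genes and 5 members (Anxa10 and Tspan8 in addition) were called in culture, and 1100 genes for the difference. No paired analysis was possible in tumours because the KO tumour columns are numbered 1 and 3 while the labels number them 1 and 2.

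Of the members' log2 fold changes under all alternatives, 255 moved from the main value by less than its SE and 23 by more. Of these 23, 7 came from counting per epithelial marker. With library totals 11 of 29 levels moved by more than the SD. The cause of these shifts was not tested. At this depth Reg4 and Spink1, and in culture Agr2 and Vsig2, had at most 6 counts in all, so no difference could be read from them; whether they are expressed below that level was not tested.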

Other observations

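Relatives of the members were tested family by family. Over all genes tested in culture, 9.27% were called higher in KO and 16.2% lower. In tumours 8.78% were called higher and 10.9% lower. Of 11 other annexins, 6 rose in KO tumours, where 8.78% of all genes tested were called higher, with the highest at 0.76. Without WT tumour 2 the 6 calls (Anxa2, Anxa3, Anxa4, Anxa5, Anxa7 and Anxa13) were all lost, and without WT tumour 1 or KO tumour 1 they became 2. Anxa6 fell, by 1.53 (SE 0.12, adjusted p = 0.00129) in tumours and by 2.92 (SE 0.18, adjusted p = 3.79e-07) in culture, where Anxa1 also fell, by 1.63 (SE 0.19, adjusted p = 5.84e-05). Of the 3 other alkaline phosphatases, Akp3 and Alppl2, the near copies of Alpi with few counts, rose in KO tumours, by 4.33 (SE 0.56, adjusted p = 0.00509) and 4.79 (SE 0.87, adjusted p = 0.0140), and Alpl fell. Of 13 other tetraspanins, 2 rose (Cd9 and Tspan1) and 3 fell in KO tumours. Without WT tumour 1 or WT tumour 2 those counts became 0 and 2. In KO cultures 5 tetraspanins fell, which became 3 without any 1 culture other than WT culture 1, and the call of Cd82 was lost without any 1 culture. Tspan13 was lower in both settings, by 2.96 (SE 0.28, adjusted p = 1.01e-05) in culture and by 1.43 (SE 0.14, adjusted p = 0.00249) in tumours. Of 6 other galectins, 4 fell in KO cultures, or 2 without KO culture 1 or WT culture 2, and 1, Lgals2, rose in KO tumours, a call lost without any 1 of the WT tumours. Of the 6 relatives of Vsig1 and Vsig2 tested in tumours, 0 were called in the main fit. In 1 fit of all libraries, and without WT tumour 3, 1 was called lower. Of 4 tested in culture, Cxadr was called higher and Igsf11 lower, and the call of Cxadr was lost in 1 fit of all libraries. Over all relatives, 12 rose and 6 fell of 50 tested in tumours (median 0.03), and 1 rose and 13 fell of 43 tested in culture (median -0.18). The 18 tumour calls became 6 without WT tumour 2, 9 without WT tumour 1 and 11 without KO tumour 1, and the 14 culture calls became 9 without KO culture 1 or WT culture 2.

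Genes of chief and parietal cells, the deep gland cells of the stomach, were scarce. Of 11 with a symbol, 2 were tested in culture and 4 in tumours. Kcnq1, a potassium channel subunit, fell by 3.93 (SE 0.26, adjusted p = 6.06e-07) in culture and by 0.86 (SE 0.17, adjusted p = 0.0175) in tumours, a call that missed the threshold when KO tumour 1 or either of WT tumours 1 and 2 was left out. Pgc, the chief cell proenzyme pepsinogen C, stood at 7.97, 13.2 and 2.89 CPM in WT tumours and 0.467 and 0.270 in KO tumours, and fell by 4.44 (SE 0.80, adjusted p = 0.0137), a call lost without KO tumour 1 and with limma-voom. Atp4a, the acid pump subunit of parietal cells, rose in tumours by 1.97 (SE 0.35, adjusted p = 0.0137), though not when WT tumour 1 or KO tumour 1 was left out.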
